A study of Homo sapiens with 18 samples.

Results

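The interaction between background and hnRNPK construct was measured here in HCT116 cells, an established human colorectal carcinoma line. For each gene it is the hnRNPK effect in cells overexpressing CRLM1 (CRLM1_hnRNPK minus CRLM1_NC) minus the hnRNPK effect in cells overexpressing the antisense sequence (Antisense_hnRNPK minus Antisense_NC), on the log2 scale. Members were all genes that passed a filter on low counts in these 12 libraries. This held 15233 of the 31004 genes listed, while 13958 had counts but did not pass and 1813 had 0 counts in all 12 libraries.

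The study sequenced RNA from 18 libraries, and 12 of them in 4 groups of 3 labelled biological replicates enter this comparison. All 12 came from HCT116 cells under the same culture conditions. CRLM1 was expressed from a lentiviral vector with a puromycin marker, whereas labels and methods give different vectors for HNRNPK, and whether its expression was stable or each background was 1 pool or 1 clone is not given in the sources used here. CRLM1_NC carried CRLM1 overexpression alone, CRLM1_hnRNPK carried CRLM1 and HNRNPK overexpression, Antisense_NC carried the antisense control alone, and Antisense_hnRNPK carried the antisense control and HNRNPK overexpression. The comparison addressed whether HNRNPK overexpression changed the transcriptome differently in the presence of CRLM1. The antisense construct is a control of the study and not an untreated state, so the interaction compares one transgene with another.

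hnRNPK is a nucleic acid binding protein with KH domains that prefer cytosine-rich single strands, and it takes part in transcription, splicing and translation. CRLM1 is a long noncoding RNA made from LINC01767. A positive interaction means that a gene was raised more, or lowered less, by the construct in CRLM1 cells than in antisense cells, and a negative interaction means the opposite.

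The hnRNPK effect differed between the backgrounds for 141 genes, 0.926% of the genes tested, of which 100 had a higher effect (0.656%) and 41 a lower effect (0.269%) in CRLM1 cells. The lower genes held the amino acid stress genes ASNS, SLC7A11, CHAC1, PSAT1 and CEBPG, which were already higher in Antisense_NC than in CRLM1_NC. The higher genes held immediate early genes (FOSB, NR4A1, FOS, MYC, DUSP1), lipid synthesis genes (FASN, ACLY) and the heat shock genes HSPA1B and HSPB1. In bulk libraries a change in every cell and a change in a share of the cells cannot be told apart. Calling a gene required an adjusted p no higher than 0.05 together with a fold difference of at least 2 or at most 0.5. Every adjusted p, unless another tool is named, was computed by the quasi-likelihood test of edgeR and corrected by the Benjamini-Hochberg method across the genes tested. The adjusted p alone was passed by 171 genes (1.12%), 123 higher (0.807%) and 48 lower (0.315%). The smallest adjusted p was 0.0189, and 3115 genes had an unadjusted p under 0.05.

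The number of calls rested on single libraries. It was 0 without any one of the 6 NC libraries and without Antisense_hnRNPK library 1, and 2 without Antisense_hnRNPK library 2, with a smallest adjusted p between 0.019 and 0.0936 in these 8 fits and 2296 to 2546 genes at an unadjusted p under 0.05. It was 246 without Antisense_hnRNPK library 3, and 693, 395 and 389 without CRLM1_hnRNPK libraries 1, 2 and 3. The spread between replicates fitted over all genes (common dispersion) was 0.031 with all libraries and 0.0079 without CRLM1_hnRNPK library 3. The 38 genes named by rule that passed the adjusted p kept the sign of their interaction in all 909 values from the alternatives tried. These genes were chosen by that p, and the alternatives reuse most of the same libraries. A change of sign was therefore unlikely from the start, and the agreement is a description only. The split also moved, from 100 higher and 41 lower with all libraries to 172 higher and 217 lower without CRLM1_hnRNPK library 3 (389 calls, 2.5% of 15568 genes, with 1.1% higher and 1.39% lower), and to 60 higher and 107 lower when log2(FPKM + 1) was tested in place of counts.

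**Figure D1:**
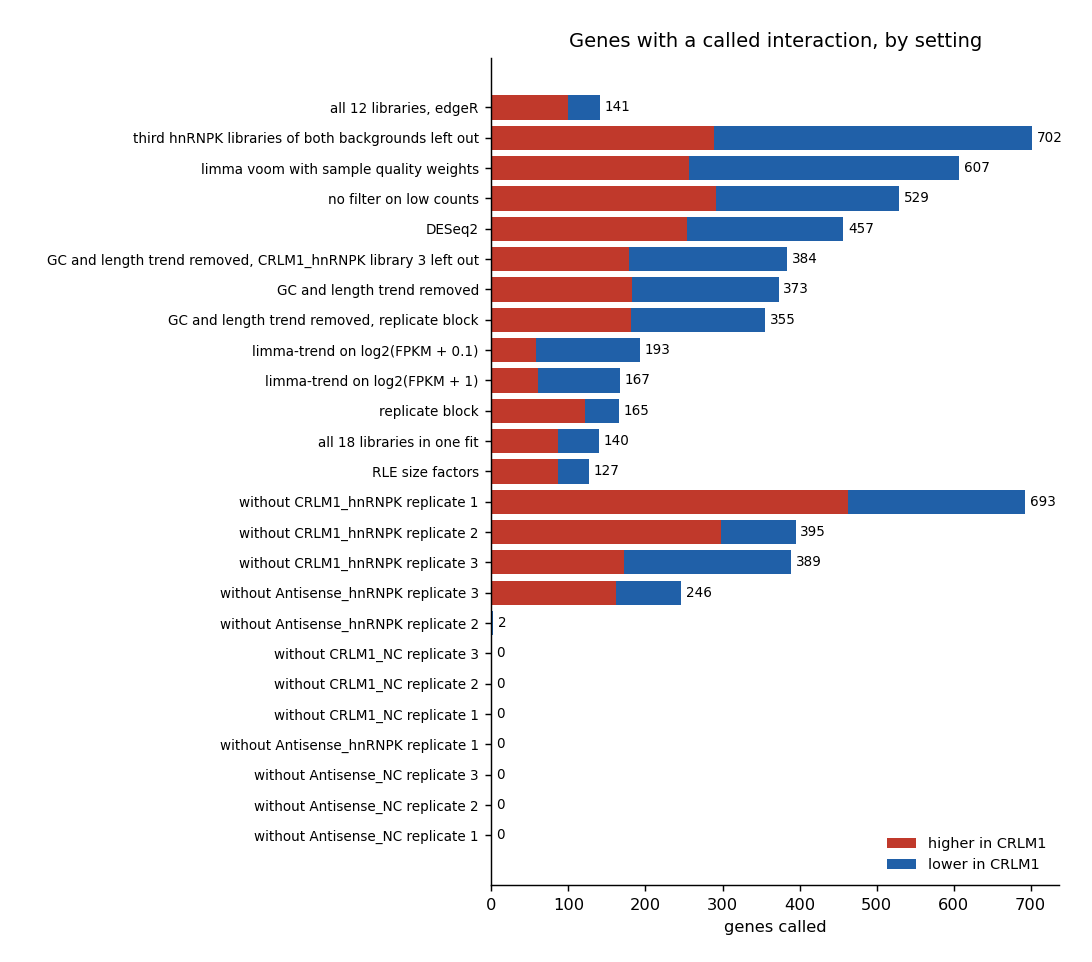
Genes with a called interaction (x axis, number of genes) under each setting (y axis), with red for a higher and blue for a lower hnRNPK effect in CRLM1 cells. All 12 libraries gave 141 calls, 7 settings that left out 1 library gave 0, and leaving out the third hnRNPK library of both backgrounds gave 702.

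CRLM1_hnRNPK library 3 stood apart from its group. Across genes its log2 CPM had correlations with the other CRLM1_hnRNPK libraries of 0.952 to 0.956 and with CRLM1_NC of 0.977 to 0.978, whereas the other 11 libraries correlated with a replicate of their own at 0.986 or above. The difference of each hnRNPK library from its own NC group also followed GC content, with a Spearman correlation across genes of -0.584 to -0.745 in the other 5 hnRNPK libraries and of 0.414 in this one. The study left this library out of its own comparisons. The main results are therefore given with all 12 libraries and without this library. Total counts ran from 19732681 to 25830383 per library, mitochondrial genes took 4.68% to 7.17% of counts, and no pair of libraries agreed within sampling noise. Epithelial genes were present, with KRT8 between 857 and 3836 CPM, and of 15 markers of other cell types only COL1A1 and CD68 passed the filter, while DCN had 0 counts. Neither was called by edgeR, DESeq2 or limma voom with all libraries, and 1 had an unadjusted p under 0.05. COL1A1, a collagen chain, had an interaction of 1.00 (SE 0.24, adjusted p = 0.0536) with all libraries and 0.83 (SE 0.16, adjusted p = 0.00137) without CRLM1_hnRNPK library 3, and passed the adjusted p in 11 of 24 alternatives.

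HNRNPK itself, the gene of the construct (ENSG00000165119.18, GRCh38 chromosome 9, 83968083 to 83980631, minus strand), had a higher level with the construct in both backgrounds, except in antisense cells once a trend on GC content was removed. HNRNPK measured 478, 473 and 472 CPM in CRLM1_NC, 708, 752 and 591 in CRLM1_hnRNPK, 439.7, 434 and 428 in Antisense_NC, and 533, 529 and 576 in Antisense_hnRNPK. Every hnRNPK library was above every NC library of its background, by 1.44-fold in CRLM1 cells and 1.26-fold in antisense cells on the group means. The interaction was 0.20 (SE 0.18, adjusted p = 0.562), which did not pass the threshold, and 0.31 (SE 0.10, adjusted p = 0.0348) without CRLM1_hnRNPK library 3, which did. With that trend on GC content and length removed from all libraries the interaction was 0.47 (adjusted p = 0.0224), and the effect within antisense cells then turned to -0.18 (adjusted p = 0.141). On both FPKM scales the interaction had the other sign, at -0.071. LINC01767, the gene of CRLM1 (listed as RP4-710M16.2), checks the background labels. RP4-710M16.2 measured 629.5, 625 and 609 CPM in CRLM1_NC, 643, 612 and 682 in CRLM1_hnRNPK, 50.9, 49.4 and 50.5 in Antisense_NC, and 41.9, 45.0 and 38.6 in Antisense_hnRNPK. The CRLM1 libraries were all above the antisense libraries, although counting may not have used strand, and its interaction was 0.32 (SE 0.17, adjusted p = 0.299).

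Across all genes the hnRNPK effects of the backgrounds had a Pearson correlation over 15233 genes of 0.465 with all libraries and 0.577 over 15568 genes without CRLM1_hnRNPK library 3. The backgrounds share no library, and genes are not independent replicates. In antisense cells 1861 genes were called for the construct (12.2%), and in CRLM1 cells 7 genes (0.046%). Without CRLM1_hnRNPK library 3 the same counts were 2066 (13.3%) and 789 (5.07%), so the small number in CRLM1 cells rested on that library. The spread of the effects (SD over genes, log2 scale) was 0.713 in antisense and 0.439 in CRLM1 cells with all libraries, and 0.732 and 0.638 without the library.

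The 100 genes with a higher interaction were genes that the construct lowered in antisense cells, while their place in CRLM1 cells rested on CRLM1_hnRNPK library 3. With all libraries their median hnRNPK effect was -1.38 on the log2 scale in antisense cells and -0.0034 in CRLM1 cells. All 100 fell past the adjusted p in antisense cells, where 22.9% of all genes tested did, and 0 moved past it in CRLM1 cells, where 0.0525% of all genes did. With that library left out the median effect of these 100 genes in CRLM1 cells was -0.24, and 39 of them fell and 7 rose past the adjusted p there, where 26.3% of all genes fell and 25.2% rose. In all 100, every Antisense_hnRNPK library was below every Antisense_NC library, against 33.0% of all genes, but these libraries enter the interaction itself and the counts are a description. The 41 lower genes had a median effect of 0.94 in antisense cells and -0.35 in CRLM1 cells. Among them 35 rose past the adjusted p in antisense cells, where 21.0% of all genes did, and 2, CHAC1 and TRIM27, fell past it in CRLM1 cells, where 0.0394% of all genes fell. Again without that library their median effect in CRLM1 cells was -0.23, and 13 of the 41 fell and 0 rose past the adjusted p there. TRIM27, a ubiquitin ligase gene, is named because of that count, after its values were seen.

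**Figure D2:**
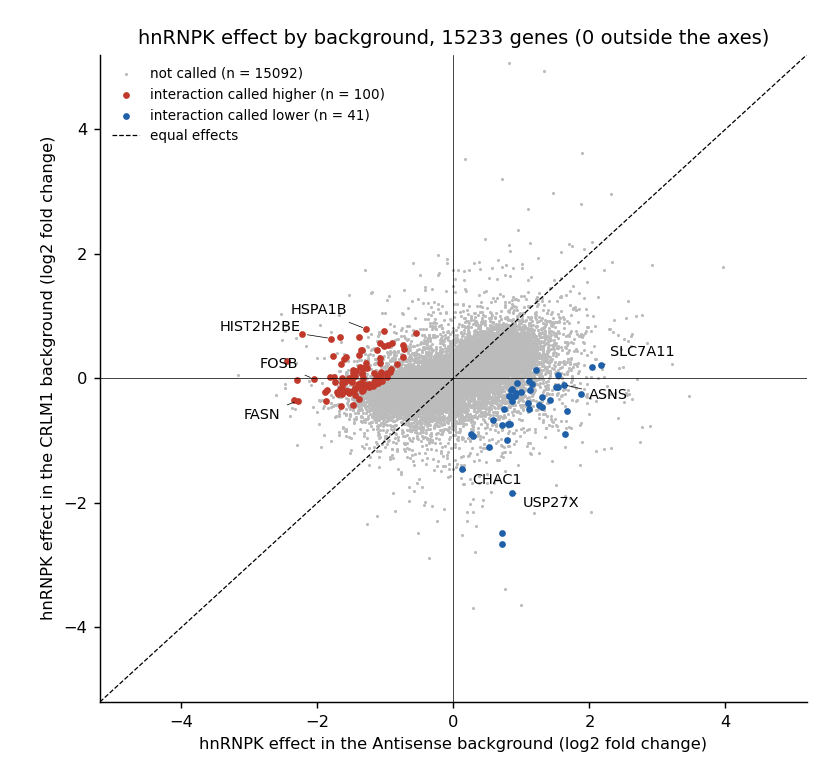
hnRNPK effect in the Antisense background (x axis, log2 fold change) against that in the CRLM1 background (y axis, log2 fold change) for 15233 genes, with the 100 called higher in red, the 41 called lower in blue and the line of equal effects dashed. With all libraries the red genes lie to the left near 0 on the y axis, and most blue genes lie to the right near or below it.

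Higher genes were richer in GC than the rest, and this moved with the library that stood apart. Median GC content of the longest transcript was 56.0% in the higher, 46.2% in the lower and 49.0% in all genes tested. For the genes called and tested without CRLM1_hnRNPK library 3 these medians were 53.2%, 49.9% and 48.9%. The Spearman correlation of the interaction with GC content across genes was 0.448 with all libraries and 0.0957 without CRLM1_hnRNPK library 3. With the trend on GC content and length removed, 373 genes were called, 183 higher and 190 lower, and 112 of the 141 were among them in the same direction. Without CRLM1_hnRNPK library 3, 118 of the 141 kept their call and direction and 0 had the opposite call, which is 83.7% of the 141 and 30.3% of the 389 called there. The part of GC content in the single results was not tested beyond these fits.

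Targets of ATF4, the transcription factor of the integrated stress response, gave the clearest negative group. ATF4 is translated when amino acids are short or the endoplasmic reticulum is stressed, and it raises genes of amino acid import, amino acid synthesis and tRNA charging. Of 29 targets tested, 5 were called lower and 0 higher, and 23 of 29 had a negative value. Over all 15233 genes tested 0.269% were called lower and 0.656% higher, and 7320 had a negative value. The median interaction of the targets was -0.48 against 0.025 for all genes tested. PPP1R15A, whose product ends the response by dephosphorylating the translation factor eIF2, passed the adjusted p in the other direction at 1.00. Without CRLM1_hnRNPK library 3 the count was 7 lower and 0 higher at a median of -0.67, where 1.39% and 1.1% of all genes were. Over all settings tried the list median stayed between -0.80 and -0.39.

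ASNS, the enzyme that makes asparagine, carried the smallest p of the group. ASNS measured 51.4, 49.9 and 53.4 CPM in CRLM1_NC, 48.5, 51.7 and 43.8 in CRLM1_hnRNPK, 207, 208 and 210.2 in Antisense_NC, and 590.4, 842 and 487 in Antisense_hnRNPK. The CRLM1 libraries lay close together with and without the construct, while every Antisense_hnRNPK library was above every Antisense_NC library, by 3.07-fold on the means. Its interaction was -1.72 (SE 0.24, adjusted p = 0.0189), and -1.64 (SE 0.22, adjusted p = 4.4e-04) without CRLM1_hnRNPK library 3. SLC7A11, the cystine importer that feeds glutathione synthesis, had the same shape at a steeper slope. SLC7A11 measured 8.71, 8.73 and 8.78 CPM in CRLM1_NC, 13.4, 9.96 and 6.97 in CRLM1_hnRNPK, 47.1, 49.6 and 42.4 in Antisense_NC, and 189, 272 and 166 in Antisense_hnRNPK. The antisense groups did not overlap and the CRLM1 groups did, and the interaction was -1.96 (SE 0.31, adjusted p = 0.0214) and, without CRLM1_hnRNPK library 3, -1.73 (adjusted p = 9.1e-04).

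CHAC1, which breaks down glutathione, differed from the other targets. CHAC1 measured 2.05, 2.83 and 2.22 CPM in CRLM1_NC, 1.16, 0.623 and 0.785 in CRLM1_hnRNPK, 53.1, 49.8 and 56.6 in Antisense_NC, and 58.7, 61.3 and 53.7 in Antisense_hnRNPK. Here the antisense groups overlapped and every CRLM1_hnRNPK library was below every CRLM1_NC library, at levels near 1 CPM. The interaction was -1.58 (SE 0.28, adjusted p = 0.027) and, without CRLM1_hnRNPK library 3, -1.5 (adjusted p = 8.5e-04), with an effect of -1.46 in CRLM1 cells and 0.12 in antisense cells. PSAT1, an enzyme of serine synthesis, rose in antisense cells at 0.86 (adjusted p = 6.0e-04). PSAT1 measured 34.1, 31.9 and 35.7 CPM in CRLM1_NC, 25.8, 32.1 and 32.3 in CRLM1_hnRNPK, 126, 139.8 and 128 in Antisense_NC, and 245, 246 and 224 in Antisense_hnRNPK. Its interaction was -1.04 (SE 0.19, adjusted p = 0.027), and -0.75 once the GC trend was removed, which is under the 2-fold limit. CEBPG, a partner of ATF4 on DNA and named after its values were seen, had an interaction of -1.31 (SE 0.24, adjusted p = 0.027) and, without CRLM1_hnRNPK library 3, -1.09 (adjusted p = 1.2e-05).

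The NC libraries already differed for these genes. Without the construct 17 of the 29 targets were lower and 2 higher in CRLM1_NC than in Antisense_NC past the adjusted p, at a median difference of -0.68, where 8.53% and 7.54% of all genes were lower and higher. For ASNS that difference was -2.02, for SLC7A11 -2.41, for PSAT1 -1.95, for CEBPG -1.54 and for CHAC1 -4.49 on the log2 scale. The NC libraries enter both this difference and the interaction, so the values are set side by side only. ATF4 mRNA itself had an interaction of -0.13 (SE 0.17, adjusted p = 0.706) and DDIT3, a transcription factor downstream of it, of -0.61 (SE 0.19, adjusted p = 0.0946).

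The promoters of ASNS and CHAC1 are shown because the C/EBP-ATF response element, the composite site that ATF4 binds together with a C/EBP partner, was found in them. It was searched as TGATGNAAN on both strands of the 250 bases before the RefSeq start, and motif and genes were chosen after the calls were seen. Among 10765 tested genes with a promoter entry 1.32% held it. It was also found for PLK3, which was called higher, and for ATF3, an ATF4 target whose interaction of 0.55 (SE 0.20, adjusted p = 0.147) did not pass with all libraries. Only 29 of the 41 lower genes and 23 of the 29 ATF4 targets had an entry, under the 80% needed for a comparison of sets, so no share of these sets is compared. Capitals mark the match, the ASNS window is chr7:97872409-97872658 on the minus strand and the CHAC1 window chr15:40953221-40953470 on the plus strand of GRCh38.p14, and both are printed 5′ to 3′ along the gene.
ASNS: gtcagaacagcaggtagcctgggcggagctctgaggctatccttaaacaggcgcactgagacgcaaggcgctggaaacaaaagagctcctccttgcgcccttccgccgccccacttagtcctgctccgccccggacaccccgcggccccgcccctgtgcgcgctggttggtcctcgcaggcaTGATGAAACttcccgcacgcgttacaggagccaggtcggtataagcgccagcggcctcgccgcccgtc
CHAC1: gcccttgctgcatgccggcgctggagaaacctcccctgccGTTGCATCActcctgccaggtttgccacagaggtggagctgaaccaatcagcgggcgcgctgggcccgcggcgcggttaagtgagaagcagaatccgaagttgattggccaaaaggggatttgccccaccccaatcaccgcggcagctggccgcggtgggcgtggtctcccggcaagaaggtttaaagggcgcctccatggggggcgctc
The match began 68 bases before the start of ASNS and, on the opposite strand, 210 bases before that of CHAC1. A match is a run of letters and no measurement of binding.

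Immediate early genes, transcription factors and phosphatases that growth signals switch on within minutes, gave the opposite pattern. Of 20 tested, 5 were called higher and 0 lower with all libraries, and all 20 had a positive value. Over all 15233 genes 0.656% were called higher and 0.269% lower, and 7913 had a positive value. The share called higher was 1.1% without CRLM1_hnRNPK library 3. The median of the 20 was 0.73 with all libraries, against 0.025 for all genes. Without CRLM1_hnRNPK library 3, 3 were called (FOS, FOSB and NR4A1) and 17 passed the adjusted p alone in the higher direction, as did 12% of all genes, at a median of 0.58. In antisense cells 16 of the 20 fell past the adjusted p and 0 rose, where 22.9% and 21.0% of all genes did. Their median effect there was -0.76, and -0.48 with the trend on GC content and length removed. With that trend removed the median interaction was 0.55. Without the construct 7 of the 20 were higher and 2 lower in CRLM1_NC than in Antisense_NC past the adjusted p. The median of this difference was 0.43, and of all genes 7.54% were higher and 8.53% lower. As for the ATF4 targets, the NC libraries enter both this difference and the interaction. The list median ranged from 0.43 to 0.89 over the settings tried, with 19 or 20 positive members.

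FOSB, a subunit of the AP-1 transcription factor, showed the widest gap. FOSB measured 56.8, 53.8 and 54.9 CPM in CRLM1_NC, 45.2, 43.8 and 75.4 in CRLM1_hnRNPK, 46.2, 36.6 and 37.9 in Antisense_NC, and 9.61, 5.61 and 13.9 in Antisense_hnRNPK. The construct lowered it in antisense cells, where the groups did not overlap and the NC mean was 4.15-fold the hnRNPK mean. In CRLM1 cells libraries 1 and 2 were below and library 3 above the NC libraries, and the interaction was 2.05 (SE 0.38, adjusted p = 0.0271) with library 3 and 1.77 (SE 0.33, adjusted p = 0.00468) without it. FOS, another AP-1 subunit, had a level above NC with the construct in CRLM1 cells. FOS measured 29.2, 25.1 and 25.2 CPM in CRLM1_NC, 33.1, 48.1 and 50.5 in CRLM1_hnRNPK, 12.6, 13.4 and 16.6 in Antisense_NC, and 9.46, 10.0 and 9.55 in Antisense_hnRNPK. No groups overlapped within a background, with the construct above NC in CRLM1 and below NC in antisense cells, and the interaction was 1.28 (SE 0.25, adjusted p = 0.0294) and, without CRLM1_hnRNPK library 3, 1.18 (adjusted p = 3.7e-04).

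NR4A1 encodes an orphan nuclear receptor. NR4A1 measured 183, 197 and 199 CPM in CRLM1_NC, 137, 142 and 231 in CRLM1_hnRNPK, 138, 134 and 132 in Antisense_NC, and 40.3, 24.4 and 46.2 in Antisense_hnRNPK. As for FOSB, library 3 of CRLM1_hnRNPK was the only one of its group above the NC libraries, and the interaction was 1.68 (SE 0.32, adjusted p = 0.0271) and, without CRLM1_hnRNPK library 3, 1.41 (adjusted p = 0.00245). MYC, the growth-promoting transcription factor, was lower in antisense cells with the construct. MYC measured 838, 849 and 804 CPM in CRLM1_NC, 945, 883 and 1092 in CRLM1_hnRNPK, 474, 467 and 468 in Antisense_NC, and 257, 216 and 316 in Antisense_hnRNPK. Its interaction was 1.06 (SE 0.21, adjusted p = 0.0293) and 0.99 without CRLM1_hnRNPK library 3, just under the 2-fold limit. DUSP1, a phosphatase that switches off MAP kinases and named after its values were seen, had an interaction of 1.06 (SE 0.23, adjusted p = 0.039) and, without CRLM1_hnRNPK library 3, 0.94 (adjusted p = 4.2e-04). CYR61 and CTGF, secreted targets of YAP, were also among the 100 and were picked after their values were seen, at 1.88 and 1.14.

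**Figure D3:**
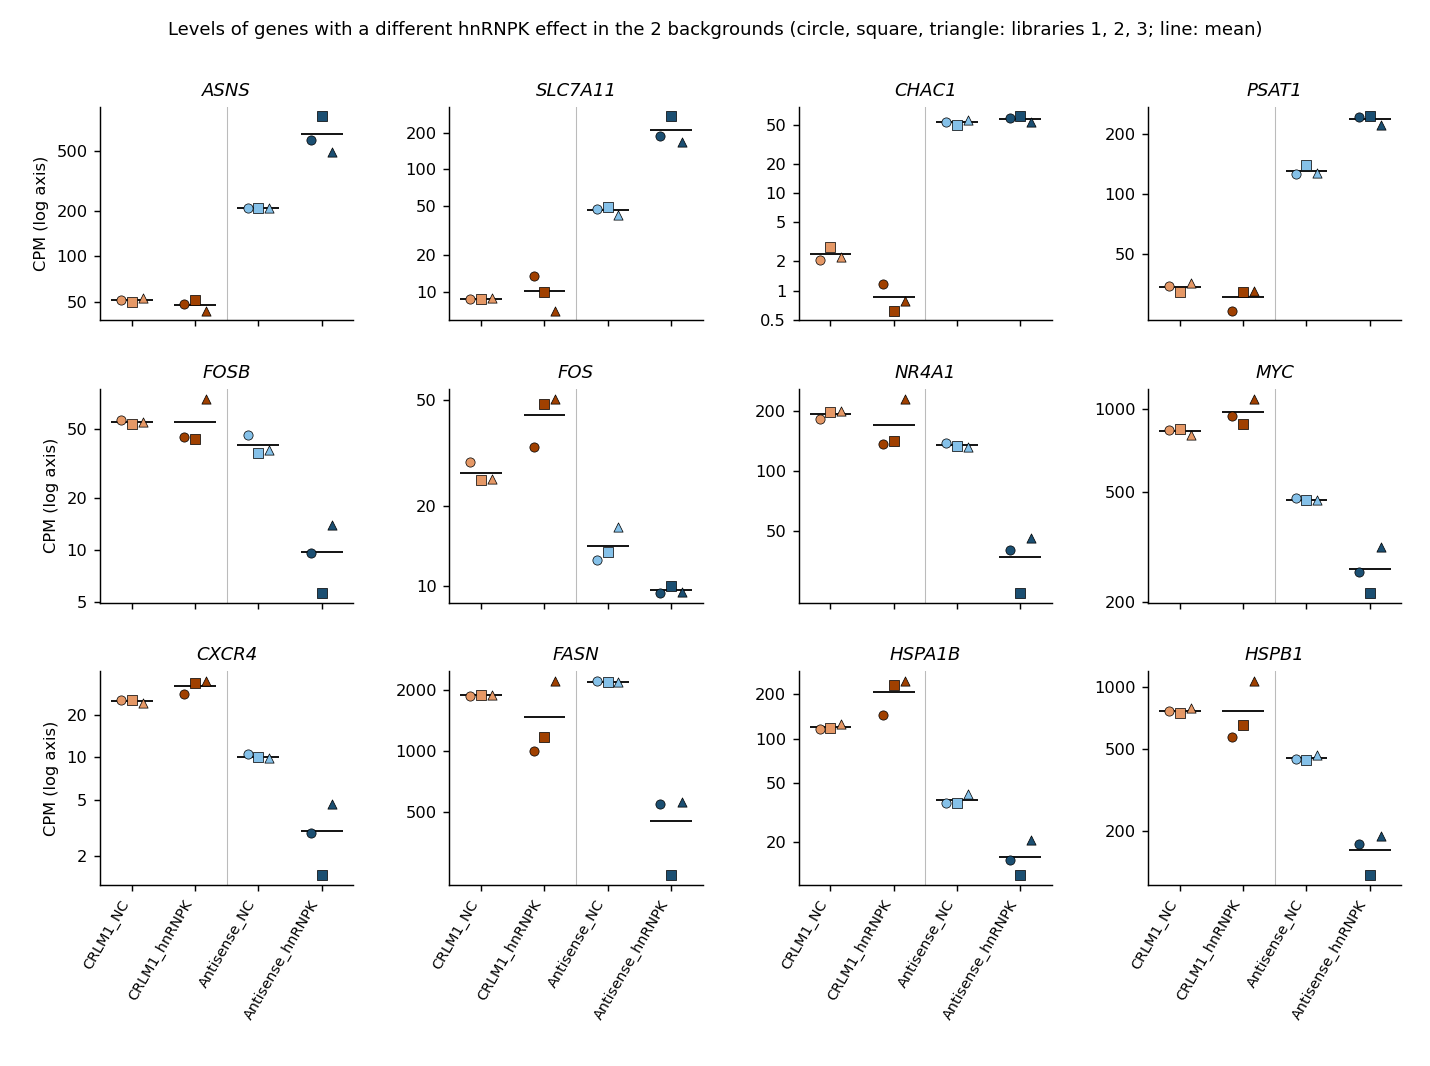
CPM on a log axis for 12 genes in each library of CRLM1_NC, CRLM1_hnRNPK, Antisense_NC and Antisense_hnRNPK, with circles, squares and triangles for libraries 1, 2 and 3 and a line at the group mean. ASNS and SLC7A11 rose with the construct in antisense cells, while FOSB, NR4A1, FASN and HSPB1 fell there and had CRLM1_hnRNPK library 3 above the other libraries of its group.

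Lipid synthesis genes stood with the higher group. Cholesterol synthesis and uptake genes, which SREBP2 switches on when sterols run low, had 2 of 24 called higher and 0 lower. Among all genes 0.656% were called higher and 0.269% lower, and 1.1% higher without CRLM1_hnRNPK library 3. A positive value was found in 23 of 24, against 7913 of the 15233 genes tested. The median interaction of the list was 0.82. The median was 0.76 without CRLM1_hnRNPK library 3, with 3 called higher, 0.81 with the GC trend removed and 0.52 to 0.94 over all settings. In antisense cells 15 of the 24 fell past the adjusted p and 0 rose, where 22.9% and 21.0% of all genes did, at a median effect of -0.77. These genes already differed without the construct, where 10 of the 24 were lower and 0 higher in CRLM1_NC than in Antisense_NC past the adjusted p. The median of this difference was -0.65, and of all genes 8.53% were lower and 7.54% higher. The median effect in CRLM1 cells was -0.024 with all libraries and -0.28 without library 3.

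Fatty acid synthesis had 2 of 15 genes called higher and 0 lower, at a median of 0.44. The count was the same without CRLM1_hnRNPK library 3, at a median of 0.55. The share of all genes called higher was 0.656% with all libraries and 1.1% without that library. Of the 15, 5 were lower and 0 higher in CRLM1_NC than in Antisense_NC past the adjusted p, at a median of -0.26. Of all genes 8.53% were lower and 7.54% higher. FASN, the fatty acid synthase, was among the 10 highest interactions. FASN measured 1872, 1891 and 1892 CPM in CRLM1_NC, 998, 1176 and 2230 in CRLM1_hnRNPK, 2229, 2190 and 2190 in Antisense_NC, and 546, 245 and 560.5 in Antisense_hnRNPK. It fell 4.89-fold in antisense cells, and in CRLM1 cells libraries 1 and 2 were below and library 3 above NC. Its interaction was 1.93 (SE 0.42, adjusted p = 0.0393), and 1.51 (SE 0.40, adjusted p = 0.0361) without library 3. ACLY, which makes the acetyl-CoA used by FASN, had an interaction of 1.06 (SE 0.22, adjusted p = 0.0364) and, without CRLM1_hnRNPK library 3, 1.01 (adjusted p = 6.2e-04). ACSS2, which makes acetyl-CoA from acetate, passed the adjusted p at 1.00.

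Among 20 cytosolic heat shock proteins, chaperones under the factor HSF1, 2 were called higher and 0 lower, where 0.656% and 0.269% of all genes were. The list median was 0.24 and turned to -0.031 on either FPKM scale. The FPKM values shifted all genes, with a median interaction of -0.14 for log2(FPKM + 1) and -0.24 for log2(FPKM + 0.1), so relative to all genes the list was at 0.11 and 0.21. HSPA1B, an inducible member of the HSP70 family, had effects of opposite sign in the backgrounds, of which the fall in antisense cells passed the adjusted p. HSPA1B measured 116, 118 and 126 CPM in CRLM1_NC, 145, 231 and 247 in CRLM1_hnRNPK, 36.8, 36.4 and 42.4 in Antisense_NC, and 15.0, 11.9 and 20.6 in Antisense_hnRNPK. Every CRLM1_hnRNPK library was above and every Antisense_hnRNPK library below its NC group, and the interaction was 2.08 (SE 0.30, adjusted p = 0.0189) and, without CRLM1_hnRNPK library 3, 1.96 (adjusted p = 0.00158). Reads of HSPA1B and its near-identical copy HSPA1A cannot be fully separated, so its level is uncertain. HSPB1 encodes a small heat shock protein. HSPB1 measured 769, 754 and 790.5 CPM in CRLM1_NC, 572, 654 and 1079 in CRLM1_hnRNPK, 449, 441 and 468 in Antisense_NC, and 173, 122 and 189.7 in Antisense_hnRNPK. It fell in antisense cells and its CRLM1 groups overlapped, at an interaction of 1.48 (SE 0.30, adjusted p = 0.0344) and, without CRLM1_hnRNPK library 3, 1.18 (adjusted p = 1.8e-04).

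The promoters of HSPA1B and HSPB1 are shown for the heat shock element, the inverted repeat to which HSF1 binds, searched as GAANNTTC on both strands. Of the 20 heat shock genes 19 had a promoter entry and 7 of them held it, against 3.92% of 10765 tested genes. The list was made of chaperones under HSF1, so this share follows from the list and bears on no interaction. Of the 7, HSPA1B and HSPB1 were called, and CHORDC1, DNAJA1, DNAJB6, HSPA1A and HSPA8 were not. The motif was chosen after the calls were seen and can overlap the ATF4 element, as it does in ASNS. Capitals mark the match in chr6:31827488-31827737 and chr7:76302423-76302672, both on the plus strand of GRCh38.p14 in RefSeq.
HSPA1B: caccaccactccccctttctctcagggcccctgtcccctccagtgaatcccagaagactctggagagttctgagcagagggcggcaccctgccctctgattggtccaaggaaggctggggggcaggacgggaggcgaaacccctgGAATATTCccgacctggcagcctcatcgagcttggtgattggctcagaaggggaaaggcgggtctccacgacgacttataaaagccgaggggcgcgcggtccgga
HSPB1: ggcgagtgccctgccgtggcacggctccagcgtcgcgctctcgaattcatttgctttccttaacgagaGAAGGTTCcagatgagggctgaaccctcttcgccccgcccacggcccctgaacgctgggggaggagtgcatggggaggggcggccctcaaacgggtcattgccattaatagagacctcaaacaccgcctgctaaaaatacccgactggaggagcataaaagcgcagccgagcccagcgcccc
The matches began 105 and 182 bases before the start. Both genes fell in antisense cells. The list as a whole had a median effect there of 0.27, which turned to -0.13 with the trend on GC content and length removed. Without that removal 5 of the 20 members fell and 2 rose past the adjusted p, where 22.9% and 21.0% of all genes did. Without the construct 10 of the 20 were higher and 1 lower in CRLM1_NC than in Antisense_NC past the adjusted p. The median of this difference was 0.46, and of all genes 7.54% were higher and 8.53% lower.

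Glycolysis and hypoxia genes had 2 of 24 called higher and 0 lower, where 0.656% and 0.269% of all genes were. A positive value was found in 20 of the 24, against 7913 of the 15233 genes tested, and the list median was 0.56. Without CRLM1_hnRNPK library 3, 1 was called higher (ALDOC), where 1.1% of all genes were, at a median of 0.41. ALDOC, an aldolase of glycolysis, measured 1270 ± 23.1 CPM in Antisense_NC and 426 ± 92.3 in Antisense_hnRNPK (SD, n = 3). In CRLM1 cells it measured 1038 ± 24.9 and 906 ± 279.6 CPM, and the interaction was 1.38 (SE 0.28, adjusted p = 0.0344) and, without CRLM1_hnRNPK library 3, 1.11 (adjusted p = 1.5e-04). SLC2A1, the glucose transporter GLUT1, had an interaction of 1.19 (SE 0.27, adjusted p = 0.046), and 0.90 without CRLM1_hnRNPK library 3. In antisense cells 17 of the 24 genes fell past the adjusted p and 3 rose, where 22.9% and 21.0% of all genes did. Their median effect there was -0.65, and -0.42 with the trend on GC content and length removed. With that trend removed the median interaction was 0.48. Without the construct 8 of the 24 were higher and 0 lower in CRLM1_NC than in Antisense_NC past the adjusted p. The median of this difference was 0.39, and of all genes 7.54% were higher and 8.53% lower.

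Single members of other lists were called higher, as were 0.656% of all genes tested. PLK3, a stress-activated kinase and the only call among 23 p53 targets, had an interaction of 1.56 (SE 0.29, adjusted p = 0.0271) and, without CRLM1_hnRNPK library 3, 1.24 (adjusted p = 2.3e-05). ID3, an inhibitor of helix-loop-helix factors that BMP signals induce, was the only call among 23 BMP and TGF-beta genes, at 1.81 (SE 0.31, adjusted p = 0.027) and, without CRLM1_hnRNPK library 3, 1.55 (adjusted p = 0.00112). ID3 measured 79.2, 80.7 and 87.3 CPM in CRLM1_NC, 83.6, 102 and 152 in CRLM1_hnRNPK, 116, 112 and 122 in Antisense_NC, and 50.4, 31.4 and 54.6 in Antisense_hnRNPK. SNAI1, a repressor of E-cadherin and the only call among 12 mesenchymal transition genes, had an interaction of 1.5 (SE 0.33, adjusted p = 0.0432) and, without CRLM1_hnRNPK library 3, 1.24 (adjusted p = 0.00102), and JUP, the junction protein plakoglobin, was the only one among 17 epithelial genes at 1.26 (SE 0.25, adjusted p = 0.0335) and, without CRLM1_hnRNPK library 3, 0.98 (adjusted p = 1.2e-05). IRF1, an interferon-induced transcription factor, was the only call among 19 interferon-stimulated genes, at 1.47 (SE 0.26, adjusted p = 0.027) and, without CRLM1_hnRNPK library 3, 1.27 (adjusted p = 2.0e-04). In the other direction, where 0.269% of all genes were called, SLC7A11 was the only call among 16 NRF2 targets, at -1.96.

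The remaining lists held 0 calls with all libraries by edgeR, where 0.926% of all genes were called. NFKBIA, the inhibitor of NF-kappaB, passed the adjusted p under the fold limit at 0.97 among 19 NF-kappaB genes, SRSF2 at 0.89 among 25 splicing factors and UBE2C at 0.97 among 20 mitosis genes. Of 16 matrix protease genes 1 passed it in the higher direction, at a list median of 0.13. With all libraries no member passed it among 20 endoplasmic reticulum chaperones, 16 ERK feedback genes, 5 poly(C)-binding proteins, 22 DNA replication genes and 20 nucleolar genes, whose medians ran from 0.013 to 0.42. In these 9 lists 1 to 8 members had an unadjusted p under 0.05, and DESeq2 and limma voom each called 1 matrix protease gene and 1 splicing factor and no member of the other 7. Without CRLM1_hnRNPK library 3, where 12% of all genes passed the adjusted p higher and 5.41% lower, members of all 9 lists passed it. These were 10 higher and 1 lower of the endoplasmic reticulum chaperones, 11 higher of the splicing factors, 8 higher and 1 lower of the mitosis genes, 6 higher of the DNA replication genes and 5 higher and 2 lower of the matrix protease genes. Of the nucleolar genes 4 were higher and 1 lower, of the ERK feedback genes 2 and 2, of the NF-kappaB genes 2 and 1, and of the poly(C)-binding proteins 2 and 0. The 2-fold limit was also passed there by 1 splicing factor in the higher and 1 matrix protease gene in the lower direction. BBC3, SMAD6, BMP7 and SMURF2, which the study picked from comparisons among its CRLM1 and Ctrl libraries without the antisense ones, had interactions of 0.33, 0.49, 0.46 and -0.57 with 0 of 4 at an unadjusted p under 0.05 and 0 called by DESeq2 or limma voom, and with adjusted p = 0.529, 0.618, 0.437 and 0.282. BBC3, the p53-induced killer protein PUMA, fell in antisense cells at -0.55 and measured 122, 119 and 216 CPM in CRLM1_hnRNPK against 165, 183 and 185 in CRLM1_NC. Without CRLM1_hnRNPK library 3 its interaction was 0.00863 and its effect in CRLM1 cells -0.56 (adjusted p = 1.8e-05).

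**Figure D4:**
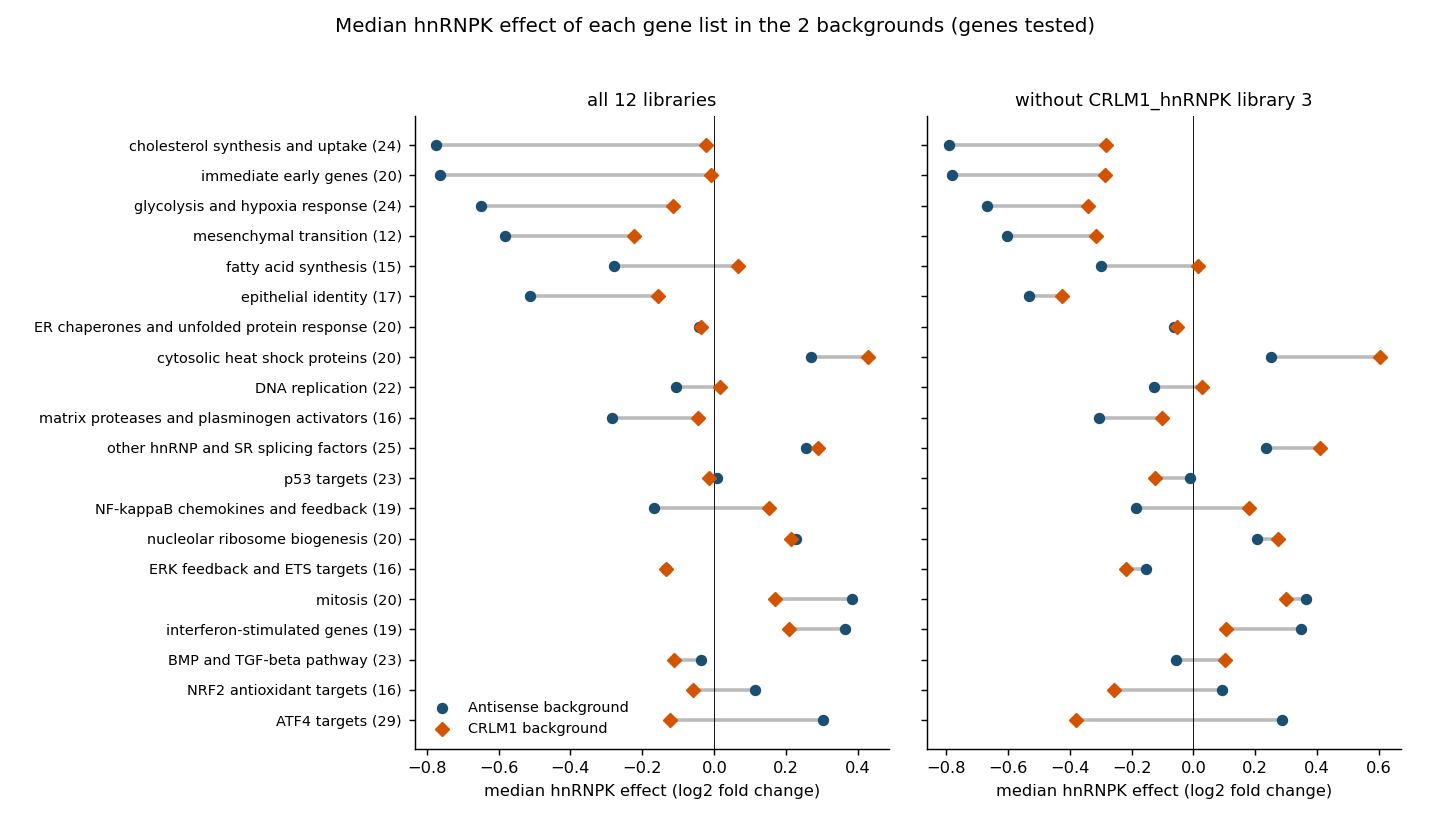
Median hnRNPK effect (x axis, log2 fold change) of each gene list with at least 10 genes tested (y axis, number tested in brackets) in the Antisense background (circles) and the CRLM1 background (diamonds), with all 12 libraries on the left and without CRLM1_hnRNPK library 3 on the right. The cholesterol and immediate early lists lay at -0.77 and -0.76 in antisense cells and near 0 in CRLM1 cells on the left, and moved to -0.28 and -0.29 in CRLM1 cells on the right.

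Among the 10 highest interactions was that of CXCR4, the receptor of the chemokine CXCL12. CXCR4 measured 25.6, 25.6 and 24.5 CPM in CRLM1_NC, 28.4, 33.8 and 35.2 in CRLM1_hnRNPK, 10.5, 10.1 and 9.87 in Antisense_NC, and 2.92, 1.45 and 4.62 in Antisense_hnRNPK. The construct groups were above NC in CRLM1 and below NC in antisense cells without overlap, and the interaction was 2.13 (SE 0.37, adjusted p = 0.027) and, without CRLM1_hnRNPK library 3, 2.10 (adjusted p = 8.4e-04). MUC1, a membrane mucin, and C1QL1, a secreted protein of the C1q family, had few copies, at most 2.58 and 6.24 CPM in any library. Their interactions were 2.06 (SE 0.39, adjusted p = 0.0271) and 2.00 (SE 0.37, adjusted p = 0.0271). Over the alternatives MUC1 ran from 0.40 to 2.28 and C1QL1 from 0.88 to 2.20. HIST2H2BE, a histone H2B gene of a family with similar copies, had the second highest interaction at 2.44 (SE 0.32, adjusted p = 0.0189) and, without CRLM1_hnRNPK library 3, 2.53 (adjusted p = 1.2e-05). The noncoding RP11-429D19.1, RP11-642A1.2 and RP11-1100L3.8 were at 2.95, 2.32 and 2.27, and RP11-1100L3.8 lies opposite NR4A1 on chromosome 12, so reads of the pair cannot be told apart without strand.

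Of the 10 lowest, USP27X, a deubiquitinating enzyme gene on the X chromosome, was the lowest. USP27X measured 0.931, 0.944 and 0.952 CPM in CRLM1_NC, 0.289, 0.259 and 0.231 in CRLM1_hnRNPK, 0.92, 1.64 and 0.878 in Antisense_NC, and 2.24, 2.45 and 1.62 in Antisense_hnRNPK. Every CRLM1_hnRNPK library was below CRLM1_NC, at levels of a few counts, and the antisense groups overlapped, at an interaction of -2.70 (SE 0.50, adjusted p = 0.0271) and, without CRLM1_hnRNPK library 3, -2.60 (adjusted p = 0.00313). RWDD2A, PTPDC1, a phosphatase gene, and E2F5, a cell cycle transcription factor, had interactions of -2.53 (SE 0.45, adjusted p = 0.027), -2.14 (SE 0.48, adjusted p = 0.0455) and -1.76 (SE 0.34, adjusted p = 0.0293). The antisense libraries of these 3 did not overlap between construct and NC, and of the 3 only RWDD2A did not overlap in CRLM1 cells. Over all genes tested the hnRNPK libraries lay wholly above NC for 33.3% and wholly below for 33.0% in antisense cells, and for 6.73% and 8.17% in CRLM1 cells. The noncoding AC083843.1 and the genes LACE1, CYS1 and C21orf91 were at -2.19, -1.86, -1.78 and -1.77. Over the alternatives USP27X ran from -3.06 to -0.62, LACE1 from -1.98 to -0.39 and CYS1 from -2.10 to -0.62.

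Mitochondrial genes were examined after the calls were seen. MT-ND4, MT-ND4L and MT-ND5, subunits of respiratory complex I, were called higher among 13 protein-coding mitochondrial genes, at a list median of 0.95. Of all genes tested 0.656% were called higher. MT-ND4 measured 7368, 6800 and 6878 CPM in CRLM1_NC, 6715, 5283 and 6903 in CRLM1_hnRNPK, 9218, 9457 and 8547 in Antisense_NC, and 3401, 3017 and 4354 in Antisense_hnRNPK. The antisense groups did not overlap and the CRLM1 groups did, at an interaction of 1.18 (SE 0.22, adjusted p = 0.0271) and, without CRLM1_hnRNPK library 3, 1.13 (adjusted p = 1.8e-04). MT-ND4L overlaps MT-ND4, so their reads are partly shared. In 8 of the 13 genes every CRLM1_hnRNPK library was below every CRLM1_NC library, against 8.17% of all genes. The median effect of the 13 in CRLM1 cells was -0.26, and -0.44 without CRLM1_hnRNPK library 3, against -1.18 in antisense cells with all libraries. Without the construct 5 of the 13 were lower and 0 higher in CRLM1_NC than in Antisense_NC past the adjusted p, where 8.53% and 7.54% of all genes were. The mitochondrial share of all counts was 6.64% to 7.17% in Antisense_NC and 5.13% to 7.00% in Antisense_hnRNPK, against 4.95% to 5.12% in CRLM1_NC and 4.68% to 6.13% in CRLM1_hnRNPK, and its part in the other results was not tested.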

How the data were processed

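Total RNA of HCT116 cells was sequenced as paired ends on an Illumina platform. The reads were aligned to GRCh38 with TopHat2 and uniquely mapped reads were counted, per the study's methods. The count table deposited by the authors holds whole reads per gene and library without normalization. The FPKM table deposited by the authors scales the same libraries by exon length and mapped fragments, and served only as an alternative. Whether counting used strand is not given in the sources used here. Total counts were 19732681 to 25830383 per library, so precision is lowest for genes of a few counts. P-values measure the spread between libraries labelled biological replicates.

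Counts of the 12 libraries were fitted in R 4.3.3 with edgeR 4.0.16 (filterByExpr, TMM, robust quasi-likelihood F-test, two-sided), with a mean per group and no replicate block. The interaction was a contrast of the 4 means. CPM values were scaled by TMM, SE is the absolute log2 fold change divided by the square root of F, and p was adjusted by Benjamini-Hochberg over all genes tested. The fit was tested on simulated counts with no library standing apart and no trend on GC content, so that test does not cover these features of the data. Groups followed the sample labels, and the other 6 libraries entered only the fit of all 18.

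Genes named by rule are HNRNPK, LINC01767, at most 10 highest and 10 lowest interactions among called genes of at least 1 CPM on average, at most 4 members with the smallest p of each of 23 gene lists, and the genes picked by the study. Some of the genes this rule picks are not reported here. The members, lists and rules were chosen with earlier results of these data known. Alternatives were RLE size factors, no filter, DESeq2 1.42.0, limma 3.58.1 (voom with quality weights, and trend on log2(FPKM + 1) and log2(FPKM + 0.1)), all 18 libraries, a replicate block, removal of a smooth trend on GC content and length, the third hnRNPK libraries left out, no fold limit, and each library left out. Removal of that trend without CRLM1_hnRNPK library 3 was added after the data were seen. Coordinates, GC content and length came from Gencode version 44 on GRCh38, whereas the study's methods name an earlier Gencode release, and promoters came from RefSeq on GRCh38.p14. Figures were drawn in Python with matplotlib.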

Additional observations from a re-analysis of the deposited data

Results flagged for a closer look

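The results below are those whose hnRNPK effect differed between the CRLM1 and the Antisense background by the interaction test of edgeR's quasi-likelihood fit. It passed the adjusted p and the 2-fold limit in 141 genes. Among the genes named, the difference of the hnRNPK effect (CRLM1 minus Antisense, log2 scale) was highest for RP11-429D19.1 2.95, HIST2H2BE 2.44, RP11-642A1.2 2.32, RP11-1100L3.8 2.27, CXCR4 2.13, HSPA1B 2.08, MUC1 2.06, FOSB 2.05, C1QL1 2.00 and FASN 1.93. It was positive and smaller for ID3 1.81, NR4A1 1.68, PLK3 1.56, SNAI1 1.5, HSPB1 1.48, IRF1 1.47, ALDOC 1.38, FOS 1.28, JUP 1.26, SLC2A1 1.19, MYC 1.06 and ACLY 1.06. It was negative for USP27X -2.70, RWDD2A -2.53, AC083843.1 -2.19, PTPDC1 -2.14, SLC7A11 -1.96, LACE1 -1.86, CYS1 -1.78, C21orf91 -1.77, E2F5 -1.76, ASNS -1.72, CHAC1 -1.58 and PSAT1 -1.04. With groups of 3 no library could be tested for standing apart within its group by this means.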

How the results depend on the processing

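The number of genes called ran from 0 to 693 when 1 library was left out. It was 457 with DESeq2 (254 higher, 203 lower), 529 without a filter (291 and 238), 607 with limma voom and quality weights (256 and 351), 702 without the third hnRNPK library of both backgrounds (289 and 413), 373 with the GC and length trend removed (183 and 190), 355 with that and the replicate block (181 and 174), and 384 with that and without CRLM1_hnRNPK library 3 (179 and 205). It was 127 with RLE size factors, 140 with all 18 libraries (87 and 53), 167 on log2(FPKM + 1) (60 and 107) and 193 on log2(FPKM + 0.1) (58 and 135), with a median of all genes of -0.14 and -0.24 on these FPKM scales. The replicate block gave 165 calls (121 and 44), 128 of them shared with the 141, and a HNRNPK interaction of 0.19. The numbers were not taken as pairs, since of 18 same-numbered pairs 1 correlated above 0.1 (range -0.148 to 0.132) and 5 correlated best with their own number. The HNRNPK interaction ran from 0.12 to 0.31 when 1 library was left out. It passed the adjusted p at 0.33 without the third hnRNPK libraries, 0.32 with voom, 0.47 with the GC trend removed, 0.47 with that and the block, and 0.36 with that and without CRLM1_hnRNPK library 3, and was -0.071 on both FPKM scales. Some values that did not pass with all libraries changed sign. BBC3 was -0.095 with voom and -0.00731 without the third libraries, and SMAD6 -0.20 with voom. CD68 was -0.041, -0.46 and -0.12 in the 3 fits with the GC trend removed (all libraries, without library 3, and with the block), -0.47 with voom, -0.079 and -0.25 on log2(FPKM + 1) and log2(FPKM + 0.1), -0.55 without the third libraries, and from -0.50 to 0.53 when 1 library was left out. The cause of these moves was not tested. The depth limits genes of few counts, such as USP27X.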
